A study of Homo sapiens with 6 samples.

Results

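The genes described here are interferon beta and the receptors and signalling factors around it: IFNB1, IFNAR1, IFNAR2, IFNGR1, STAT2, IRF9, IRF1, IRF3 and IRF7. They were taken by symbol from the deposited gene table, where each has a single entry, and make up 9 of its 35009 genes. THP-1, a line grown from a human monocytic leukaemia, was the source of the macrophages, and all 6 libraries were from cells given ox-LDL, oxidised lipoprotein of the kind that turns macrophages into foam cells. The control group (oxldl, 3 libraries) has the genotype label control, and the other group (oxldl_siMCT4, 3 libraries, here siMCT4) is deficient in MCT4, the lactate exporter encoded by SLC16A3. The comparison asks how these genes differ between the groups. The labels do not say whether controls received a non-targeting siRNA, so loss of MCT4 and the siRNA itself cannot be told apart, and they do not name separate cultures, so that p-values reflect only how far these samples spread, which may be technical.

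Interferon beta is a secreted cytokine that cells make after sensing viral or misplaced nucleic acid. The kinases TBK1 and IKBKE activate IRF3 and IRF7, which bind the IFNB1 enhancer together with NF-kB and ATF2/JUN. The secreted protein binds a receptor of the chains IFNAR1 and IFNAR2, the attached kinases TYK2 and JAK1 phosphorylate STAT factors, STAT2 among them, and STAT2 joins IRF9 in ISGF3, the complex that switches on antiviral genes. IFNGR1 is the ligand-binding chain of the separate interferon gamma receptor, and IRF1 is a factor that interferon gamma induces.

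The promoters of 4 of the genes are shown because IFNB1 was detected in siMCT4 libraries only and IRF9, IRF1 and STAT2 passed the test described below, while their promoters hold different letters. RefSeq (GRCh38.p14) promoter windows, from 250 bases before to 50 after a start site, were found for 6 of the 9 genes: IFNB1, IFNAR1, IFNGR1, STAT2, IRF9 and IRF1. The 250 bases before the start site are printed 5′ to 3′ on the strand of the gene, and capitals mark the matched motifs.
IFNB1, chr9:21077943-21078192, - strand: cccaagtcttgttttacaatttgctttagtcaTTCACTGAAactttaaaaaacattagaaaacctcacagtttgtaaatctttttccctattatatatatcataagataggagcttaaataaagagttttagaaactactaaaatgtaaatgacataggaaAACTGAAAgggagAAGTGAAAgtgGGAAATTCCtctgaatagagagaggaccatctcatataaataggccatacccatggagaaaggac
IRF9, chr14:24161015-24161264, + strand: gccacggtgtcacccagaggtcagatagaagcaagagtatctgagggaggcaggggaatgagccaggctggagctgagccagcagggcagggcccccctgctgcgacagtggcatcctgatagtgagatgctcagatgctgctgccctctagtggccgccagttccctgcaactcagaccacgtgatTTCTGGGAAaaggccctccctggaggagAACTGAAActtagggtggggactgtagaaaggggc
IRF1, chr5:132490774-132491023, - strand: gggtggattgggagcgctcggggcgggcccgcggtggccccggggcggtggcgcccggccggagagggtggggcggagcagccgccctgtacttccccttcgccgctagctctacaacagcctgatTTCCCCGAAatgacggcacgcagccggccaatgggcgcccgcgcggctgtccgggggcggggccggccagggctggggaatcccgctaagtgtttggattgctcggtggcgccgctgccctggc
STAT2, chr12:56360108-56360357, - strand: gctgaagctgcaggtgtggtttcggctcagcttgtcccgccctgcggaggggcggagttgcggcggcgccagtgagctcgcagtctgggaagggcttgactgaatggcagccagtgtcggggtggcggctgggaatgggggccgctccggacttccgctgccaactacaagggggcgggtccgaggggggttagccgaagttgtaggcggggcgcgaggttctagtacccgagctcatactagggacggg
The motifs, searched on both strands, were the core that IRF proteins bind (AANNGAAA, in 22.8% of all 35116 promoter windows of this length), the GAS element of STAT dimers (TTCNNNGAA, in 7.66%), an NF-kB site (GGAANTTCC, in 0.965%) and the ISRE of ISGF3 (GAAANNGAAA, in 3.57%), whose letters include the IRF core. The IFNB1 promoter held AACTGAAA starting 89 bases and AAGTGAAA starting 76 bases before the start site, with GGAAATTCC right behind them at 65 bases and TTCACTGAA at 218 bases. The IRF9 promoter held TTCTGGGAA 63 bases and AACTGAAA 35 bases before the start site. The IRF1 promoter held the GAS match TTCCCCGAA 124 bases before it. None of these letters were in the STAT2, IFNAR1 or IFNGR1 windows, and the ISRE letters were in no window of the 6 genes.

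The deposited counts came to 61880619 to 69181938 per library, and SLC16A3 was at 6428 to 7708 counts in controls and 691 to 949 in siMCT4. The macrophage identity of the cells was checked on 7 markers. Of these, CD14, ITGAM, CSF1R, LYZ and FCGR3A were called lower, CD68 and SPI1 were not called, 0 were called higher, and their summed level ran from 3757 to 3859 CPM in controls and 2860 to 3000 CPM in siMCT4. CPM, the unit of these sums, scales each library to 1000000 counts after TMM correction. The lysosomal marker CD68 had 58701 to 60562 counts in controls and 63051 to 70510 in siMCT4, while the lipopolysaccharide coreceptor CD14 had 755 to 834 and 157 to 302. The share of counts from mitochondrial genes was 4.52% to 4.85% in controls and 3.20% to 3.35% in siMCT4. Library 3 of siMCT4 stood apart from libraries 1 and 2. COL1A2, a fibroblast collagen, had 1892 and 1782 counts in siMCT4 libraries 1 and 2 and 0 in library 3 and in all controls, and the epithelial keratin KRT18 had 172 and 112 counts there, 0 in library 3, and 0, 0 and 4 in controls. The collagen COL1A1 on the same list went the other way, with 182, 175 and 443 counts in siMCT4 against 322, 283 and 399 in controls. EPCAM had 2, 4 and 0 counts in siMCT4 and 0 in all controls. COL1A2 and KRT18 were named after their values were seen. For the 9 genes, values for library 3 alone or without it are therefore given where they differ, and for listed genes that are split in this way the ratios of each library are given.

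Of the 9 genes, IFNB1 passed the filter on low counts through the siMCT4 libraries alone and is described by its counts. Of the other 8, IFNAR2, STAT2 and IRF9 (3 genes) were called higher in siMCT4, IRF1 (1 gene) was called lower, and IFNAR1, IFNGR1, IRF3 and IRF7 were not called. Calls come from the quasi-likelihood test of edgeR, adjusted by Benjamini-Hochberg over 19944 tested genes, at an adjusted p under 0.05; adjusted p-values below are from it unless another fit is named. The comparison moved a large part of the transcriptome: 41.4% of all tested genes were called, 20.6% as higher and 20.8% as lower, so 4 calls among 8 genes is a share to be read against that background. Groups did not overlap in CPM for 6 of the 8 genes, against 55% of all tested genes. The median log2 change was -0.07 over the 8 genes and -0.01 over all tested genes. RNA was measured in bulk, so fewer cells expressing a gene and less RNA per cell cannot be told apart.

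**Figure D1:**
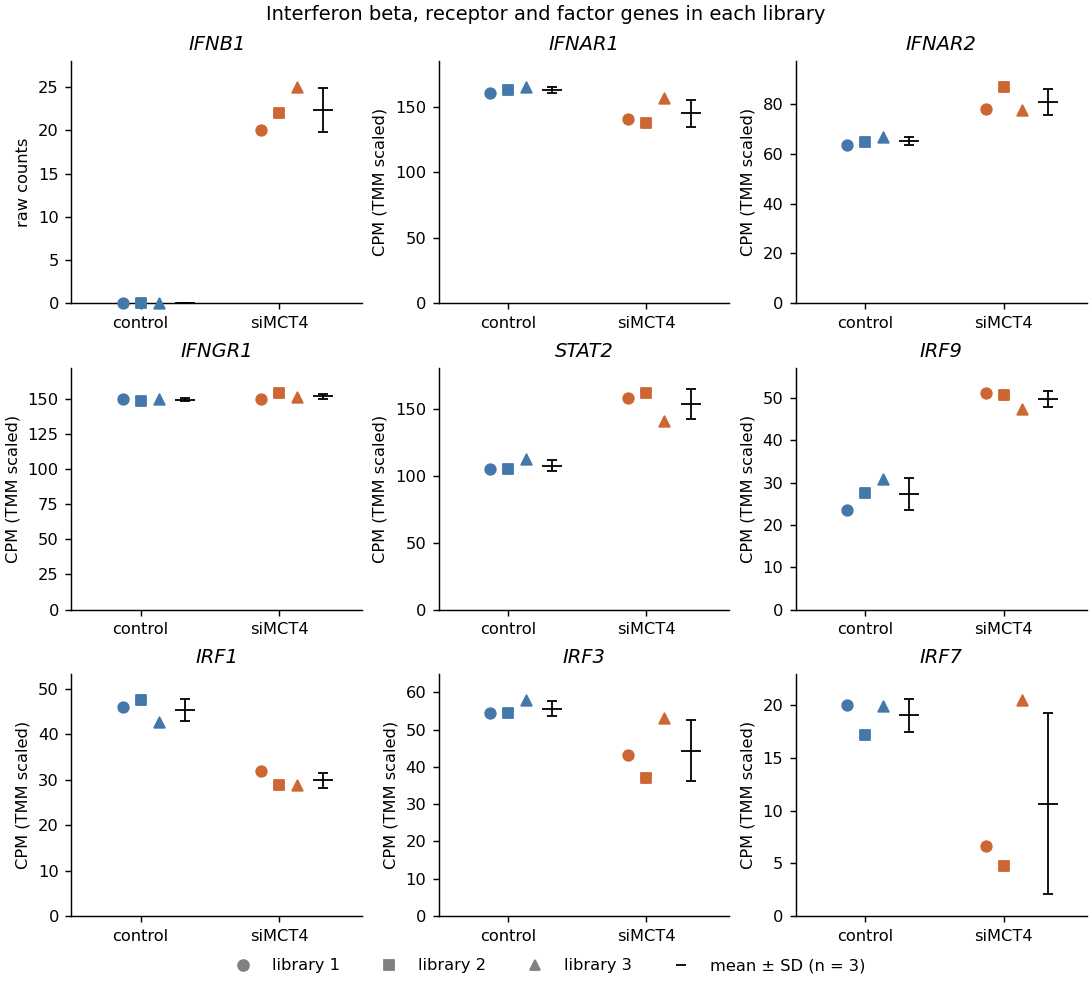
Values of the 9 genes in each library, as raw counts for IFNB1 and as TMM-scaled CPM for the others; circles, squares and triangles are libraries 1, 2 and 3, and the bar beside each group is the mean ± SD (n = 3). IFNB1 aside, the groups are apart for 6 of 8 genes, against 55% of all tested genes. IFNGR1 overlaps, and the IRF7 value of siMCT4 library 3 sits with the controls at 20.5 CPM.

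IFNB1 RNA was present in siMCT4 and not detected in controls. IFNB1 (ENSG00000171855, GRCh38 chr9:21077104-21077942, - strand) had 0, 0 and 0 counts in control libraries 1, 2 and 3 and 20, 22 and 25 counts in siMCT4 libraries 1, 2 and 3. All siMCT4 libraries were thus above all controls and close to each other, library 3 included. Against a floor of 3 counts over the 3 controls together, the 67 counts over siMCT4 are at least 21.2-fold higher once scaled for depth. If 2 counts stand for 1 fragment, as the excess of even counts in the table allows, the floor is 6 counts and the bound at least 10.6-fold. Such bounds allow for counting error in the controls only, and not for that in siMCT4 or for spread between libraries. Exact permutation (two-sided) gave p = 0.1, which 3 libraries against 3 cannot go below. Any gene whose groups are apart gets this value, so it adds nothing to the counts. No adjusted p is given, since the counts in siMCT4 decided that the gene was tested.

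The level of IFNB1 stayed low, with 0.313, 0.316 and 0.352 CPM in siMCT4 libraries 1, 2 and 3. In the deposited FPKM, which also divide by gene length, it was 0.371 ± 0.0237 (SD, n = 3), the lowest of the 9 genes. Deposited FPKM do not carry the TMM factors used here (0.969 to 0.972 in controls, 1.03 in siMCT4). Against controls, siMCT4 values therefore stand higher in FPKM than in CPM for every gene. Of 35009 genes, 27 (0.0771%) had 0 counts in all controls and at least 20 in each siMCT4 library, and 5 (0.0143%) showed the reverse. The cut of 20 is the lowest siMCT4 count of IFNB1 itself, so these numbers are a description. Of the 20 other interferon ligand genes on the list, 3 had an entry and none passed the filter. IFNA21, an interferon alpha, had 4 counts in siMCT4 library 3 and 0 elsewhere. IFNE, the interferon of the reproductive tract, had 1 count and IFNK, the interferon of keratinocytes, 8 counts, each in siMCT4 library 2 alone. The other 17 were not analysed here.

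The 3 genes whose pattern over the 6 libraries lay nearest to that of IFNB1 were IFIT2, IFIT3 and FN1. The measure was the root mean square distance between log2 CPM values centred on their own mean, over 10835 genes with a mean FPKM of at least 1. It was 0.0909 for IFIT2 and 0.0965 for IFIT3, which encode antiviral RNA-binding proteins, and 0.121 for FN1, which encodes the matrix protein fibronectin. The distances, and so which genes came out nearest, rest on the prior count that stands in for 0 in IFNB1. IFIT2 had 351, 316 and 318 counts in controls against 4155, 4355 and 4234 in siMCT4. FN1 had 13845, 12907 and 11267 counts in the controls against 165852, 178470 and 172830 in siMCT4. Both had every siMCT4 library above every control and close values within a group, but unlike IFNB1 they were present in controls, FN1 at a high level.

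Markers of plasmacytoid dendritic cells, a cell type known for its interferon output, were also read. The 4 tested markers summed to 18.8 to 21.1 CPM in controls and 32.8 to 36.9 CPM in siMCT4. IL3RA, an interleukin-3 receptor chain, and TCF4, a transcription factor, were called higher. LILRA4, a defining surface receptor, had 85, 40 and 55 counts in controls against 33, 39 and 48 in siMCT4, and GZMB, a granule protease, was not called. CLEC4C was not analysed here. The part of these markers in the IFNB1 result was not tested. Of the lymphocyte markers, NKG7 was tested and not called, with 93, 86 and 86 counts in controls against 103, 111 and 84 in siMCT4. Of the stromal, endothelial and epithelial markers, 2 were tested, and the collagen COL1A1 was not called. The adhesion molecule PECAM1 was called lower, with 33364 to 36342 counts in controls against 21641 to 24137 in siMCT4. CDH5, the other endothelial marker listed, was not analysed here, so PECAM1 is not read as a sign of endothelial cells.

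Of the type I interferon receptor chains, IFNAR2 rose, while IFNAR1 had lower values that did not pass the test. IFNAR1 (ENSG00000142166, chr21:33324387-33359730, + strand), the signalling chain bound by TYK2, was at 161, 163 and 165 CPM in controls and 141, 138 and 157 CPM in siMCT4 libraries 1, 2 and 3. Every siMCT4 value was below every control, with library 3 nearest to them. In FPKM, which lack the TMM factors, the groups overlapped, with 10.2, 10.4 and 10.3 in controls and 9.61, 9.41 and 10.7 in siMCT4. The log2 change was -0.17 (SE 0.0577, adjusted p = 0.0526), and 0.0312 on TPM (limma, adjusted p = 0.744). IFNAR1 was called lower in the 3 fits with GC correction (-0.21 to -0.22, adjusted p = 0.0201 to 0.0328). Without siMCT4 library 3 it was -0.20 and was called (adjusted p = 0.00222), and for library 3 alone it was -0.04 (adjusted p = 0.687).

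IFNAR2 (ENSG00000159110, chr21:33205282-33265675, + strand), the high-affinity binding chain, which carries JAK1, was at 63.5, 64.8 and 66.8 CPM in controls and 77.9, 86.8 and 77.5 CPM in siMCT4. The groups did not overlap. The mean rose from 65.05 ± 1.66 to 80.7 ± 5.30 CPM (SD, n = 3), a log2 change of 0.31 (SE 0.0600, adjusted p = 0.00489). The call depends on how reads are split between overlapping genes. ENSG00000249624, a read-through of IFNAR2 and its neighbour IL10RB on the same strand, had 82, 1150 and 83 counts in controls against 1686, 142 and 112 in siMCT4. It took 21.7% of the summed counts in control library 2 and 25.3% in siMCT4 library 1, and 1.89% to 2.30% in the other 4 libraries. With the read-through counts added to IFNAR2 the log2 change was 0.34 (SE 0.125) and the call was lost (adjusted p = 0.0674).

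IFNGR1 (ENSG00000027697, chr6:137197483-137219449, - strand) had the highest FPKM of the 9 genes in both groups. It was at 149, 149 and 150 CPM in controls and 150, 154 and 151 CPM in siMCT4, and the groups overlapped. The log2 change was 0.02 (SE 0.0383, adjusted p = 0.692). Its partner chain IFNGR2, which carries JAK2, had 3961, 3681 and 3989 counts in controls against 14292, 16094 and 15869 in siMCT4, and rose by 1.92 on the log2 scale (adjusted p = 5.38e-07). IFNGR1 passed as higher on the FPKM and TPM scales, which lack the TMM factors. The log2 changes there were 0.11 to 0.22 (limma, adjusted p = 0.00341 to 0.0445). After GC correction the change of IFNGR1 was -0.0418.

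STAT2 and IRF9, which meet in ISGF3, both rose. STAT2 (ENSG00000170581, chr12:56341597-56360203, - strand) was at 105, 106 and 113 CPM in controls and 159, 162 and 141 CPM in siMCT4. All siMCT4 values were above all controls, with library 3 the lowest of them. The mean rose from 108 ± 4.27 to 154 ± 11.1 CPM (SD, n = 3), a log2 change of 0.52 (SE 0.0638, adjusted p = 0.000598). For library 3 alone the change was 0.41 (adjusted p = 0.00288), in a fit that assumes that this single library varies as the controls do.

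IRF9 (ENSG00000213928, chr14:24161234-24168043, + strand), the DNA-binding subunit of ISGF3, was at 23.4, 27.6 and 30.9 CPM in controls and 51.0, 50.7 and 47.5 CPM in siMCT4. The siMCT4 libraries were close to each other, while the controls were spread over a wider range. The mean rose from 27.3 ± 3.74 to 49.7 ± 1.96 CPM (SD, n = 3), a log2 change of 0.86 (SE 0.102, adjusted p = 0.000467), and in library 3 alone the change was 0.82 (adjusted p = 0.00371). Here too an overlapping gene takes a share of the counts. ENSG00000259529, on the same strand, had 1290, 806 and 342 counts in controls against 565, 659 and 442 in siMCT4. These are 45.1%, 31.4% and 14.9% of the sum with IRF9 in controls, and 14.8%, 15.8% and 11.6% in siMCT4. The sum of both genes was still called higher, with a change of 0.54 (SE 0.0790, adjusted p = 0.00129), lower than that of IRF9 by itself.

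IRF1 was the gene of the 9 that fell. IRF1 (ENSG00000125347, chr5:132440440-132496467, - strand) was at 45.9, 47.5 and 42.7 CPM in controls and 31.8, 28.9 and 28.8 CPM in siMCT4. Every siMCT4 library lay below every control, by a gap wider than the spread within either group. The mean went from 45.4 ± 2.45 to 29.8 ± 1.70 CPM (SD, n = 3), and IRF1 fell by 0.60 in log2 units (SE 0.0696, adjusted p = 0.000416). In library 3 alone it fell by 0.64 (adjusted p = 0.00138). The antisense gene IRF1-AS1 overlaps IRF1 and had 229 to 268 counts in controls and 170 to 245 in siMCT4. The strand setting of the counting is not given in the sources used here, so reads of the gene and its antisense partner cannot be told apart, and with the overlapping opposite-strand genes added the change was -0.59 (adjusted p = 0.00041).

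IRF3 (ENSG00000126456, chr19:49659569-49665875, - strand), the factor present before any stimulus, was at 54.5, 54.4 and 57.9 CPM in controls and 43.1, 37.0 and 53.0 CPM in siMCT4 libraries 1, 2 and 3. Library 3 lay just below the lowest control, and libraries 1 and 2 lay further below. In FPKM, which lack the TMM factors, library 3, at 13.4, was within the controls at 12.8 to 13.5. The log2 change was -0.33 (SE 0.123, adjusted p = 0.0707). Without siMCT4 library 3 it was -0.45 and was called (adjusted p = 0.0015), and for library 3 alone it was -0.05 (adjusted p = 0.657). IRF3 was also called lower by DESeq2 (-0.31, adjusted p = 0.0444). With counts of BCL2L12, an overlapping gene on the opposite strand, added, the sum of both genes was called lower (-0.31, adjusted p = 0.0383).

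IRF7 (ENSG00000185507, chr11:612553-615983, - strand), the interferon-induced factor that amplifies the response, was at 20.01, 17.2 and 19.9 CPM in controls and 6.70, 4.80 and 20.5 CPM in siMCT4 libraries 1, 2 and 3. Libraries 1 and 2 were far below the controls, and library 3 was above all of them. The log2 ratios to the control mean were -1.51, -1.99 and 0.11. The fitted change was -0.83 (SE 0.490, adjusted p = 0.217), and it was -1.70 and called without siMCT4 library 3 (adjusted p = 7.04e-05).

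The split of IRF7 within siMCT4 was shared by GC-rich genes, while the GC bin that holds IRF3 was not split. IRF7 and IRF3 have the highest GC content of the 9 genes, at 66.8% and 59.0%, and the other 7 lie between 40.2% and 55.4%. Among genes past a log2 CPM of 2, the 384 with at least 64% GC had median log2 ratios to the control mean of -0.97, -1.06 and -0.23 in siMCT4 libraries 1, 2 and 3. In the 913 genes with 60% to 64% GC the medians were -0.40, -0.45 and -0.17. In the 1633 genes with 55% to 60% GC, the bin of IRF3, they were -0.14, -0.15 and -0.14. After a GC correction per library the change of IRF7 was -0.31 (adjusted p = 0.45) and that of IRF3 was -0.0966 (adjusted p = 0.458). Of 10834 genes, those with a pattern nearest to IRF7 were MBD3, a chromatin repressor subunit, FBXW5, a ubiquitin ligase subunit, and TSC22D4, with distances of 0.112, 0.147 and 0.153 and GC contents of 62.5%, 66.6% and 65.9%. MBD3 had 2686, 2547 and 2277 counts in controls against 928, 718 and 3164 in siMCT4, low in libraries 1 and 2 and high in library 3, as IRF7 was. The part of GC content in the IRF7 and IRF3 values was not tested apart from that correction.

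**Figure D2:**
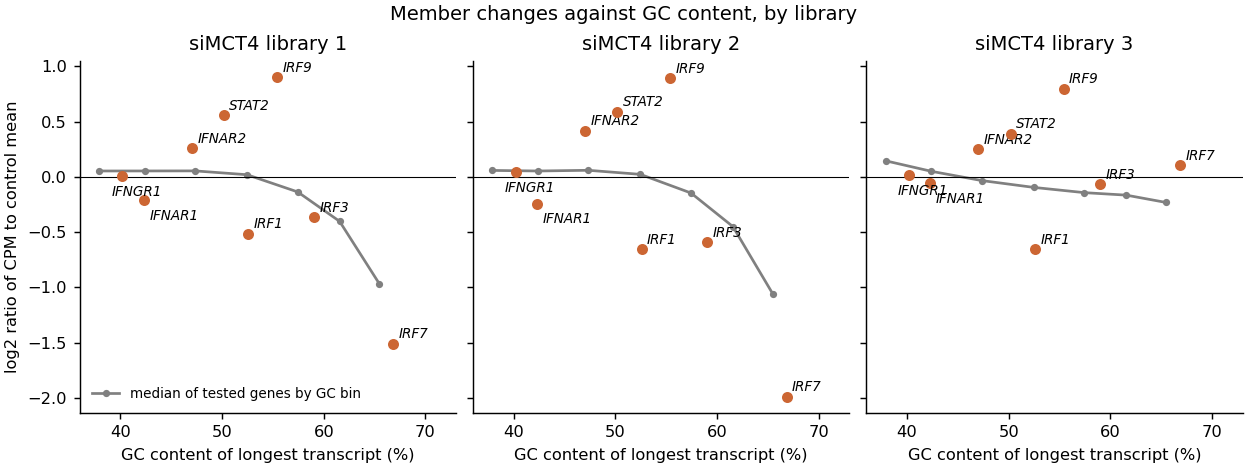
Log2 ratio of CPM to the control mean (vertical axis) against GC content of the longest transcript in percent (horizontal axis) for 8 genes in siMCT4 libraries 1, 2 and 3; IFNB1 is left out because its controls are at 0, and the grey line joins medians by GC bin over genes past a log2 CPM of 2. IRF7 lies at -1.51 and -1.99 in libraries 1 and 2 and at 0.11 in library 3, while IRF9, STAT2, IFNAR2 and IRF1 keep their side of 0 in all 3.

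**Figure D3:**
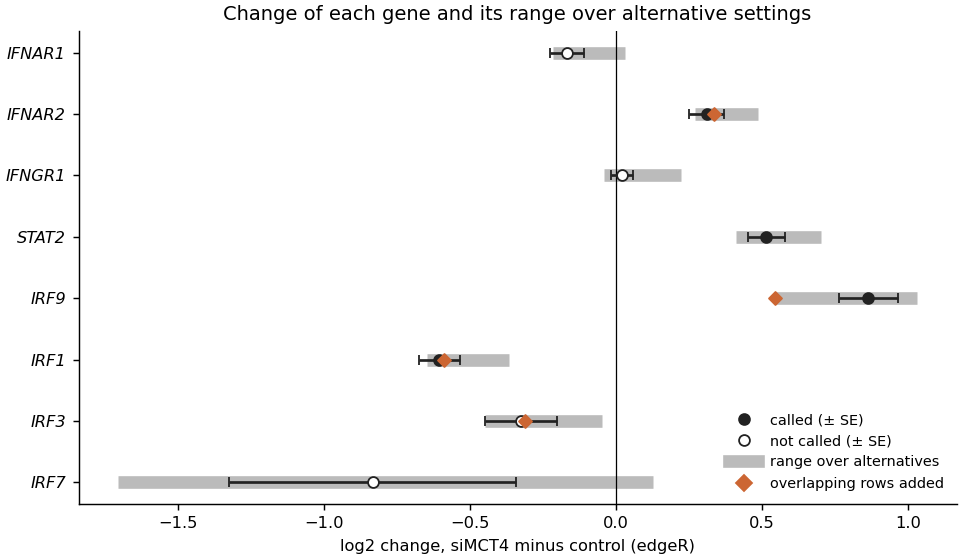
Log2 change (siMCT4 minus control) with its SE for 8 genes, filled where called and open where not; grey bars span the values over the alternative settings and diamonds give the change after overlapping genes were added, for the 4 genes that have a sizeable one. The bars of STAT2, IRF9, IFNAR2, IRF1 and IRF3 stay on their side of 0, while those of IFNAR1, IFNGR1 and IRF7 cross it.

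Levels were compared between genes on the deposited FPKM, which divide by gene length. In controls the order was IFNGR1 (37.7 ± 0.221), IRF3 (13.1 ± 0.366), STAT2 (10.4 ± 0.332), IFNAR1 (10.3 ± 0.126), IRF7 (6.48 ± 0.483), IFNAR2 (4.20 ± 0.0942), IRF9 (3.75 ± 0.504), IRF1 (3.31 ± 0.214) and IFNB1 at 0 (FPKM, mean ± SD, n = 3). The libraries of STAT2 overlapped those of IFNAR1, those of IFNAR2 overlapped IRF9, and those of IRF9 overlapped IRF1. In siMCT4, STAT2 was the second (16.0 ± 1.18 FPKM) behind IFNGR1 (41.3 ± 0.540 FPKM), and IRF9 was the fifth (7.38 ± 0.302 FPKM). IRF1 (2.34 ± 0.136 FPKM) again had the lowest mean but for IFNB1. Its libraries overlapped those of IRF7, which was below IRF1 in siMCT4 libraries 1 and 2 (2.45 and 1.75 against 2.50 and 2.27 FPKM). In library 3 IRF7 was at 7.53 FPKM. The lengths behind the deposited FPKM are larger than the merged exons of GENCODE 29 by 3.04 times for IFNAR2 and 2.27 times for IFNAR1 relative to IFNB1. On GENCODE 29 lengths IFNAR1 was the second in controls and IFNAR2 was the fifth, so the middle of the order depends on the annotation. By group mean, IFNGR1 was first and IRF1 and IFNB1 last on either length.

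Ratios of FPKM between partner genes, which do not depend on library scaling, gave the balance of each pair. Of the 5 pairs given here, 4 had groups that did not overlap, with p = 0.1 in the exact two-sided permutation test and 0.12 after Benjamini-Hochberg adjustment over the 6 pairs computed, so none passed and none could have with 3 against 3. The largest difference was in the interferon gamma receptor. IFNGR1 to IFNGR2 was 1.81, 1.85 and 1.70 in controls and 0.479, 0.475 and 0.484 in siMCT4, so the ligand-binding chain was above its partner in every control and below it in every siMCT4 library, also on GENCODE 29 lengths. The difference of the log2 ratio was -1.896.

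IFNAR1 to IFNAR2 was 2.48, 2.46 and 2.42 in controls and 1.77, 1.55 and 1.98 in siMCT4, a difference of -0.48 on the log2 scale. Every siMCT4 ratio was below every control ratio, but with the read-through counts added to IFNAR2 the groups overlapped (exact permutation p = 0.2), the count ratio being 1.97 in control library 2 and 1.99 in siMCT4 library 3. IRF1 to IRF2, its antagonist at shared sites, went from 0.502 ± 0.0416 to 0.232 ± 0.0207 (SD, n = 3), a difference of -1.12 on the log2 scale. STAT2 to IRF9 went from 2.79 ± 0.310 to 2.16 ± 0.0774 (SD, n = 3), a difference of -0.36 that shrank to -0.03 when counts of the gene overlapping IRF9 were added. IRF7 to IRF3 was 0.531, 0.457 and 0.497 in controls and 0.224, 0.187 and 0.561 in siMCT4, with library 3 above the controls (exact permutation p = 0.4).

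**Figure D4:**
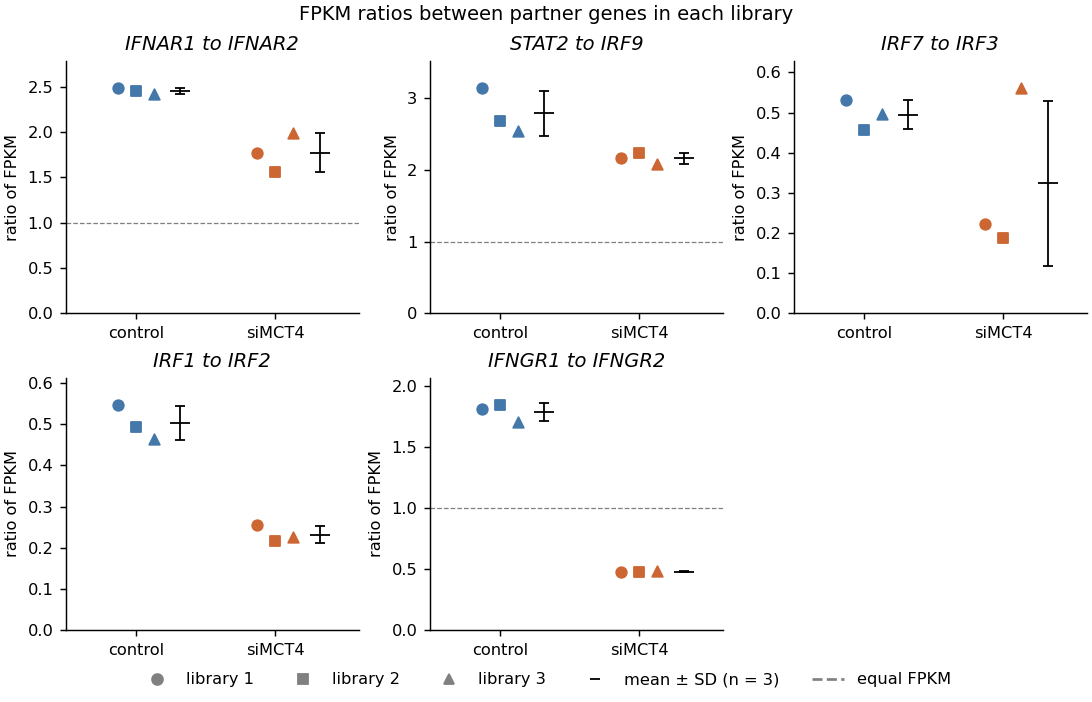
Ratio of deposited FPKM between partner genes in each library, with mean ± SD (n = 3) beside each group and a dashed line at equal FPKM. IFNGR1 to IFNGR2 crosses that line, from 1.70 to 1.85 in controls to 0.475 to 0.484 in siMCT4, and IRF7 to IRF3 is split within siMCT4.

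Other genes of the pathway were read from lists, each described by its counts of called genes. Each count is to be read against all tested genes, of which 20.6% were called higher and 20.8% lower. Genes of a small count that lie outside the naming rule were named after their values were seen. Among 5 partner receptor chains and Janus kinases, IFNGR2 and JAK2 (log2 change 0.59, adjusted p = 0.000308) rose, while JAK1 (-0.06, adjusted p = 0.396), TYK2 (-0.24, adjusted p = 0.0619) and IL10RB (-0.22, adjusted p = 0.0929) were not called, and the median was -0.06. TYK2 was called lower without siMCT4 library 3 (-0.32, adjusted p = 0.000316) and called higher after GC correction (0.12, adjusted p = 0.0406). Of the 5 other STAT genes given here, STAT5B fell by 0.40 (adjusted p = 0.000674) and STAT3 (0.02), STAT4 (0.74), STAT5A (0.12) and STAT6 (0.09) were not called (median 0.09). Of the 4 other IRF genes given here, IRF2 (0.51, adjusted p = 0.000724) and IRF5, a factor of inflammatory macrophages (0.53, adjusted p = 0.00749), rose. IRF8, a factor of the myeloid lineage, fell by 0.32 (adjusted p = 0.00319), and IRF4 (-0.11) was not called (median 0.20).

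Upstream of IRF3 and IRF7, 13 kinases and adaptors were divided, with 5 higher, 5 lower and 3 not called (median 0.01). Of all tested genes 41.4% were called. The higher ones were TANK, a scaffold of TBK1 (0.55, adjusted p = 6.58e-05), the Toll-like receptor adaptor MYD88 (0.27, adjusted p = 0.00342), MAVS, the adaptor of RNA sensors (0.29), and the kinases TBK1 (0.24, adjusted p = 0.0131) and IKBKE (0.27). TBK1 lost its call without control library 3 (adjusted p = 0.0517) and with GC correction and pairing together (adjusted p = 0.0728). The lower ones were STING1, the adaptor of DNA sensing, the kinase IRAK1, and AZI2 (-0.77), TBKBP1 (-0.52) and TRAF3 (-0.32). STING1 had 3090, 3113 and 2824 counts in controls against 779, 961 and 733 in siMCT4, and fell by 1.94 in log2 units (SE 0.111, adjusted p = 1.47e-05). IRAK1 had a log2 change of -0.79 (adjusted p = 2.24e-05), which GC correction brought to -0.33 (adjusted p = 0.017). TICAM1 (-0.24), TRAF6 (0.01) and IRAK4 (0.05) were not called, and the log2 ratios of TICAM1 to the control mean were -0.63, -0.84 and 0.41 in siMCT4 libraries 1, 2 and 3.

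Of 7 partners at the IFNB1 enhancer, NFKB1 (0.79, adjusted p = 7.4e-05), the acetyltransferase EP300 (0.60, adjusted p = 0.00016), CREBBP (0.30) and ATF2 (0.25) rose, and JUN (-0.42) and RELA (0.12) were not called (median 0.25). JUN was split as TICAM1 was, with log2 ratios of -0.80, -0.98 and 0.21. The architectural protein HMGA1 was called lower (-0.13, adjusted p = 0.0479), but kept that call in 1 of 21 alternative settings and was positive in 4. Of 14 negative regulators that passed the filter in both groups, 5 rose, 3 fell and 6 were not called (median 0.01), beside 41.4% called among all tested genes. SOCS1, an inhibitor of Janus kinases, had 13, 12 and 9 counts in controls against 44, 66 and 37 in siMCT4, and passed the filter through siMCT4 alone. USP18, which blocks signalling at IFNAR2, rose by 1.71 (adjusted p = 4.98e-06) and SOCS3 by 0.89 (adjusted p = 0.00075). The ones that fell were IRF2BP2, a corepressor of IRF2 (-0.71, adjusted p = 4.79e-05), the phosphatase PTPN11 (-0.33, adjusted p = 0.00186) and RBCK1 (-0.87), the last with log2 ratios of -1.19, -1.27 and -0.35 in siMCT4 libraries 1, 2 and 3.

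Downstream, 17 of 19 ISGF3 target genes rose, 0 fell and ISG15 (1.34) and IFI6 (-0.20) were not called, with a median of 2.40 on the log2 scale, where 20.6% of all tested genes rose. ISG15 had log2 ratios of 0.63, 0.22 and 2.29 in siMCT4 libraries 1, 2 and 3, and IFI6 of -0.88, -0.89 and 0.60, so both were highest in library 3. IFIT1 rose by 6.26 (adjusted p = 7.85e-08) and IFIT3 by 3.66 (adjusted p = 1.32e-07). Of 10 target genes of IRF1 and interferon gamma that passed the filter in both groups, 8 rose, 1 fell and 1 was not called (median 0.84). The same 20.6% of all tested genes rose. CXCL10, CXCL11 and IDO1 passed it through siMCT4 alone and are left out of that count. GBP1, an interferon-induced GTPase, had 219, 199 and 127 counts in controls against 2749, 2930 and 2864 in siMCT4 and rose by 3.90 (SE 0.180, adjusted p = 5.61e-06). TAP1, the peptide transporter of antigen presentation, rose by 0.91 (adjusted p = 6.52e-06). The gene that fell was FCGR1A, the high-affinity IgG receptor (-1.66, SE 0.0538, adjusted p = 1.24e-06), and CIITA (0.25) was not called. Many of the genes on these lists respond to type I and to type II interferon alike, so the list names do not separate the 2 routes.

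**Figure D5:**
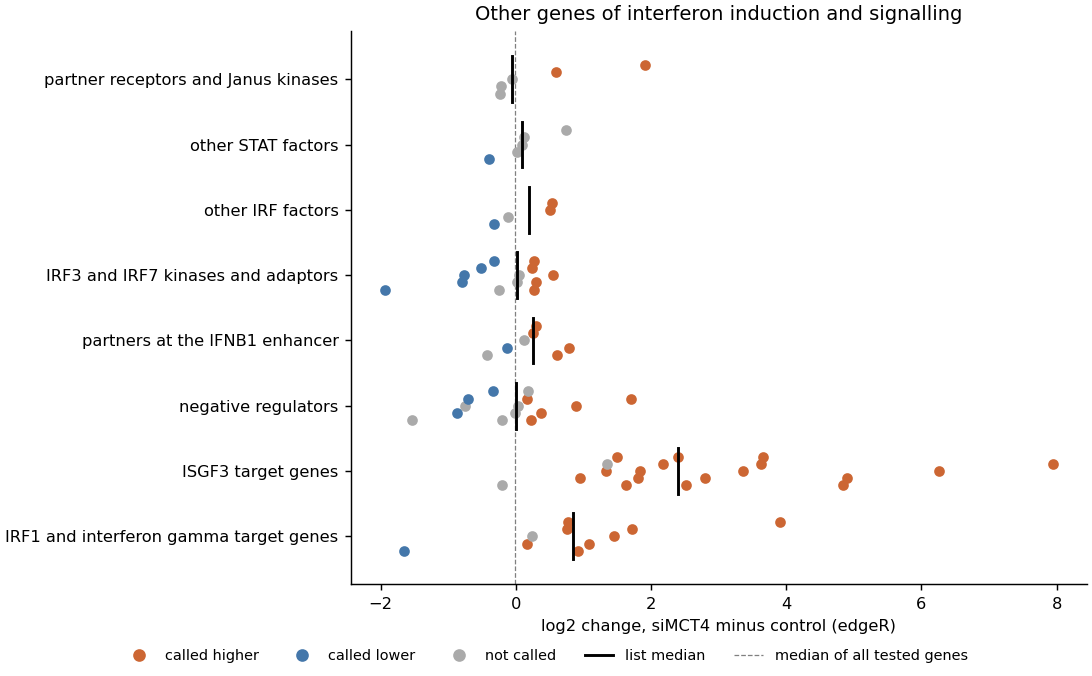
Log2 change (siMCT4 minus control) of each gene that passed the filter in both groups on 8 lists of the pathway, coloured by call, with the median of each list as a black bar and that of all tested genes as a dashed line. ISGF3 targets have a median of 2.40 and IRF1 and interferon gamma targets 0.84, while the medians of the other lists lie between -0.06 and 0.25.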

How the data were processed

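Paired-end libraries of polyadenylated RNA were prepared so as to mark strand, per the labels' protocols. Trimming with cutadapt 1.9 and alignment with HISAT2 2.2.1 rest on names in the submitters' processing notes, which also list GRCh38. How counting was done, with which annotation and strand option, is not given in the sources used here. The table that the authors deposited holds raw counts and FPKM for 35009 genes and 6 libraries, per the file headers. Even numbers made up 58.7% to 60.9% of deposited counts from 2 to 41.

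Counts were tested with edgeR 4.0.16 (R 4.3.3): TMM scaling, filterByExpr with a smallest count of 10 and total of 15, group as sole factor, two-sided, Benjamini-Hochberg over 19944 genes, called at an adjusted p under 0.05. Each SE is the change over the root of its F statistic. The common biological coefficient of variation was 0.219. FPKM ratios were tested by exact permutation over 20 assignments of the libraries. GC content is that of the longest GENCODE 29 transcript; 96.8% of tested genes had one. Fits were tested on simulated data.

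The genes and the 13 lists (102 of 125 symbols had an entry) were chosen with earlier results of these data known; 3 further listed genes and 1 FPKM ratio are not reported here. Named beside the 9 genes were SLC16A3, 9 pathway genes whatever their values, up to 2 called genes per list and direction with the smallest adjusted p, the cell type markers, and the 3 nearest patterns for IFNB1 and IRF7. Alternatives were DESeq2 1.42.0, limma 3.58.1 on FPKM and TPM with pseudocounts of 1 and 0.1, other scalings and filters, GC and length corrections, pairing by number, and leaving out libraries. Adding overlapping genes and GENCODE 29 lengths were chosen after seeing the data.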

Additional observations from a re-analysis of the deposited data

How the results depend on the processing

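Over 21 alternative settings, STAT2, IRF9 and IRF1 kept their direction and their call, IRF9 and IRF1 as sums where overlapping genes were added. IFNAR2 lost its call in 1, the sum with its read-through gene (adjusted p = 0.0674). Among the 8 genes other than IFNB1, the 3 called higher in the edgeR test stayed so but for that loss. IFNGR1 joined them on the FPKM and TPM scales. The count called lower, 1 in the edgeR test, was 2 with DESeq2 (IRF3 added), with GC correction alone, with length or with the replicate block, (IFNAR1 added), and with the replicate block by itself and with overlapping genes added (IRF3 added), and ran from 1 to 4 when a library was left out, the 4 being without siMCT4 library 3. Genes called lower over the whole table numbered 2759 with limma on genes of a mean FPKM of at least 1. On TPM, 68.5% of calls were higher against 49.8% in the edgeR test, and the median of all genes moved from -0.01 to 0.11. Signs turned for IFNAR1 on TPM (0.0312), for IFNGR1 with GC correction (-0.0418), with length added (-0.0342) and with the block added (-0.042), and for IRF7 in siMCT4 library 3 alone (0.13). JAK1 was 0.0515 on FPKM with a pseudocount of 0.1, 0.0463 with a pseudocount of 1, with or without the filter on mean FPKM, and 0.14 on TPM. TYK2 was 0.12 with GC correction, 0.13 with length added and 0.12 with the block added, and HMGA1 was 0.25, 0.27 and 0.24 in the same order and 0.0767 on TPM. Whether replicate numbers pair the libraries could not be decided. Deviations from group means correlated at -0.101, 0.0714 and -0.148 for same-numbered libraries and at -0.162 to 0.173 for the others. These are Pearson's r across 11074 genes, which are not independent, and centring within groups of 3 ties them to each other. With the replicate block 6921 genes were called, against 8260, and IRF3 was called lower (-0.34, adjusted p = 0.0481). The 5 FPKM ratios given kept their direction in 10 alternatives each, where no p was under 0.1. IFNB1 rests on 67 counts, so its size is known as a bound only.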
